A study of Arabidopsis thaliana with 9 samples.

Results

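The wild-type plants of the series gave 3 of its 9 RNA sequencing libraries, and the description below covers these 3, named WT 1, WT 2 and WT 3. They were chosen by the genotype label alone. Each library lists 33977 identifiers, of which 32548 are genes of the nuclear chromosomes and make up the transcriptome described here. The plants were Arabidopsis thaliana of the Col-0 accession with no transgene named in their labels, and the material was tissue above the ground taken at the bolting stage, when the flowering stem starts to elongate. Seeds were held in water at 4 °C for 2 days, and the plants then grew on soil with 12 h of light a day in a chamber set to 22 and 20 °C. Their age in days, the hour of harvest and the number of plants behind a library are not stated in the labels. The other libraries of the series came from plants with an RNA interference transgene against PPD3 and were not used. The 3 libraries are labelled as biological replicates, and since they form the only group described there was no comparison to test. All values are levels, with their spread over n = 3 libraries.

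A leaf cell builds most of its protein for photosynthesis. Chlorophyll a/b binding proteins form the antenna that collects light for photosystems II and I, and the nuclear genome encodes all of them, whereas the reaction centre proteins and the large subunit of Rubisco are encoded in the plastid. Bolting is the transition at which the apical meristem stops making rosette leaves and raises an inflorescence. The gene FT in leaf phloem and the factors SOC1, LFY and AP1 at the apex are the known core of that switch.

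Gene counts came to 34775560 in WT 1, 34747447 in WT 2 and 34804491 in WT 3, so depth was nearly equal. Levels are given in CPM, the count of a gene per 1000000 gene counts of its library, and as CPM per kb of exon wherever genes are set against each other. A gene with no count in a library can have had a level of up to 0.0863 CPM there by the limit that 3 counts set, and of up to 0.0288 CPM over the 3 libraries together. These limits cover counting error only. Genes of the plastid and mitochondrial genomes are listed at 0 in all 3 libraries, which leaves the organelle transcripts unmeasured. A gene is called expressed below where it reached 1 CPM or more in all 3 libraries, which 17366 nuclear genes did, or 53.4%, and silent where it had 0 counts in all 3, which held for 9093, or 27.9%. Genes are ranked within lists and classes by CPM, which is not corrected for length, unless a value per kb is given.

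The most abundant transcripts were those of photosynthesis genes. CAB1, a chlorophyll a/b binding protein of the main antenna of photosystem II, was the most abundant nuclear transcript with 20906 CPM in WT 1, 20219 CPM in WT 2 and 18979 CPM in WT 3. RBCS1A, which encodes a small subunit of Rubisco, the enzyme that fixes carbon dioxide, followed with 11171, 10293 and 9908 CPM. LHB1B2, also of the main antenna, had 8691, 8649 and 8497 CPM. The order of these 3 genes was the same in each library, and their values did not overlap. Set per length they stood at 16288 ± 794, 8247 ± 511 and 8242 ± 97.8 CPM per kb (SD, n = 3), so the difference between RBCS1A and LHB1B2 in CPM was mostly one of exon length and was smaller than their spread per kb.

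The 10 genes with the highest level per kb were all nuclear genes of photosynthesis, and 7 of them belonged to the antenna. After the first 3 came CAB3 at 4210 ± 216 CPM per kb, LHCA1 of the photosystem I antenna at 3985 ± 231, LHCB5 at 3852 ± 172 and LHCB3 at 3663 ± 209 CPM per kb. PSBO1, the protein that stabilises the manganese cluster of photosystem II, stood at 3389 ± 174 CPM per kb, PSBR of photosystem II at 3192 ± 297 and the minor antenna protein LHCB6 at 3067 ± 183 CPM per kb. Neighbours in this order from CAB3 down differed by less than the larger of their SDs, except LHCB3 and PSBO1. Of the 20 genes with the highest level per kb, 18 were on the 5 photosynthesis lists. The 2 exceptions were THI1, an enzyme of thiamine synthesis in the plastid, with 2686 ± 225 CPM per kb, and GRP7, an RNA-binding protein under clock control, with 2616 ± 50.7 CPM per kb.

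**Figure D1:**
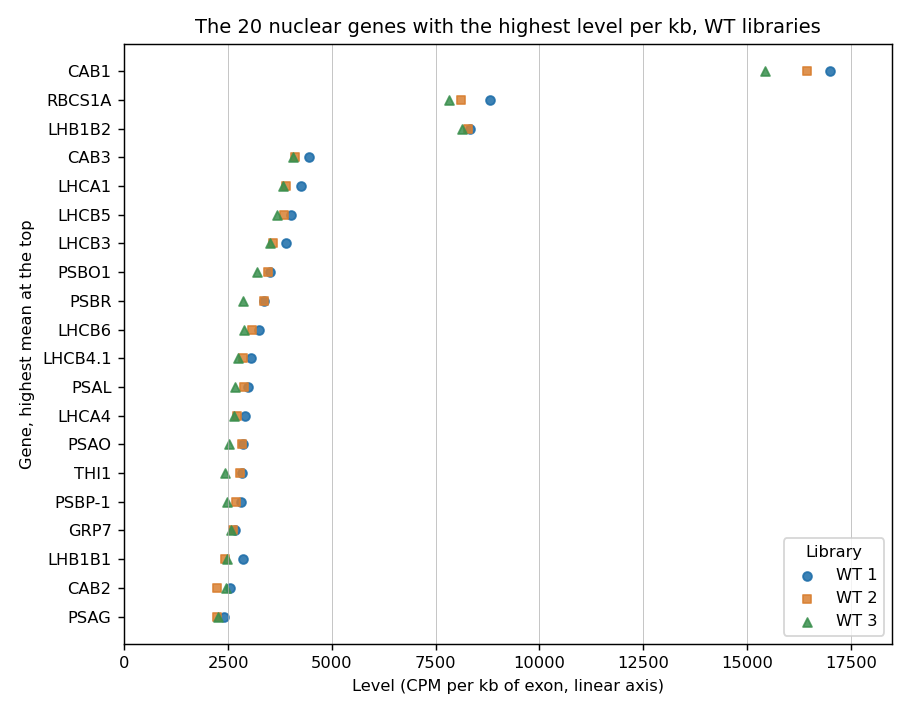
The 20 nuclear genes with the highest mean level in wild-type tissue above the ground, as CPM per kb of exon on a linear axis, with a point for each of the 3 libraries. CAB1 lies near 16288 CPM per kb, RBCS1A and LHB1B2 near 8247 and 8242, and the next gene, CAB3, near 4210.

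Among the 20 genes with the highest CPM, 15 were photosynthesis genes, 11 of them of the antenna. The remaining 5 belonged to other leaf functions. CAT3 (AT1G20620), a catalase that removes hydrogen peroxide in peroxisomes, had 6057, 6716 and 6184 CPM in WT 1, WT 2 and WT 3. TGG1, the myrosinase that releases mustard oils from glucosinolates and is stored in idioblasts and guard cells, had 4025, 3511 and 4314 CPM. LOX2, the plastid lipoxygenase that opens jasmonate synthesis, had 4419, 3198 and 4094 CPM and was the most variable of the 20. THI1 had 4550, 4494 and 3899 CPM, and the class III peroxidase PRXR1 had 3710, 4092 and 3991 CPM. LOX2 and TGG1 shared the library with their lowest value, WT 2.

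Together the 10 most abundant genes held 7.80, 7.54 and 7.16% of all gene counts in WT 1, WT 2 and WT 3. The 100 most abundant held 24.8, 23.8 and 23.2%, and the 1000 most abundant 53.2, 52.3 and 51.5%. Each share was highest in WT 1 and lowest in WT 3. A level of 1000 CPM or more was reached by 95 genes, 46 of them from the photosynthesis lists, and these 95 genes held 23.4% of the counts.

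The 5 photosynthesis lists held 78 genes, and every one of them was expressed, beside 53.4% of all nuclear genes. Their share of the counts was 17.2% in WT 1, 16.2% in WT 2 and 15.5% in WT 3, a mean of 16.3 ± 0.837%. Counted per kb of exon, they held 21.3%. The 20 antenna genes held 7.91 ± 0.326% of the counts, the 24 genes of Rubisco and the Calvin cycle 3.72 ± 0.238%, and the 12 subunits of photosystem II 2.09 ± 0.132%. The 12 subunits of photosystem I held 1.70 ± 0.0921%, and the 10 electron carriers and ATP synthase subunits 0.870 ± 0.0579%.

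Members of the antenna spanned 28.7 to 16288 CPM per kb. The main antenna protein Lhcb1 is encoded by CAB1, CAB2, CAB3, LHB1B1 and LHB1B2, and these 5 genes together held 4.04 ± 0.165% of all counts. CAB1, CAB2 and CAB3 lie close together on chromosome 1, with CAB1 at chr1:10477885-10479114 on the plus strand of TAIR10.1. CAB2 stood at 2408 ± 150 CPM per kb and LHB1B1 at 2589 ± 240 CPM per kb, against the 16288 CPM per kb of CAB1. Between 1.51 and 4.44% of the words of 100 bases in the exons of these 5 genes recur elsewhere in the genome, so reads in those stretches may have been shared out or lost. The annotated exons of LHB1B2 are wholly overlapped by genes on the opposite strand, and the library kit does not mark strand.

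At the other end of the antenna list were Lhca5 at 124 CPM per kb, Lhca6 at 76.7 CPM per kb and LHCB4.3 at 28.7 CPM per kb. Lhca5 and Lhca6 join photosystem I to the NAD(P)H dehydrogenase complex. LHCB4.3 had 37.5, 54.1 and 32.9 CPM in WT 1, WT 2 and WT 3, the widest spread of the list with a CV of 26.9%. CV is the SD over the 3 libraries as a percentage of the mean.

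Paralogues of other photosynthetic proteins were also unequal. RBCS3B stood at 2179 CPM per kb, RBCS2B at 1079 and RBCS1B at 406 CPM per kb, against 8247 CPM per kb for RBCS1A, and the 4 genes held 1.53 ± 0.113% of the counts. PSBP-1, an extrinsic protein of the oxygen-evolving complex, had 3823, 3663 and 3344 CPM, whereas its copy PSBP-2 had 6.53, 6.42 and 5.55 CPM. Per kb, PSBP-2 stood at 6.10 CPM, against 2664 CPM for PSBP-1. Plastocyanin, the copper protein between the cytochrome complex and photosystem I, came mainly from DRT112 at 1458 CPM per kb, against 150 CPM per kb for PETE1. Ferredoxin came mainly from FED A at 607 CPM per kb, against 164 CPM per kb for FD1.

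Rubisco activase, RCA, had 3808, 3859 and 3639 CPM with a CV of 3.05%. Among photorespiration genes, 17 of 18 were expressed, beside 62.5% of all coding genes. After CAT3 they were led by SHM1, the serine hydroxymethyltransferase of mitochondria, at 1533 ± 54.9 CPM and the aminotransferase GGT1 at 1379 ± 87.6 CPM. CAT2 (AT4G35090), the catalase known from photorespiration, had 251, 313 and 271 CPM and stood at 100.6 CPM per kb, against 1867 CPM per kb for CAT3. PGLP1, the phosphoglycolate phosphatase, was listed at 0.546, 0.259 and 0.402 CPM, but 100% of the 100-base words of its exons occur elsewhere in the genome, so its count cannot be read as its level.

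**Figure D2:**
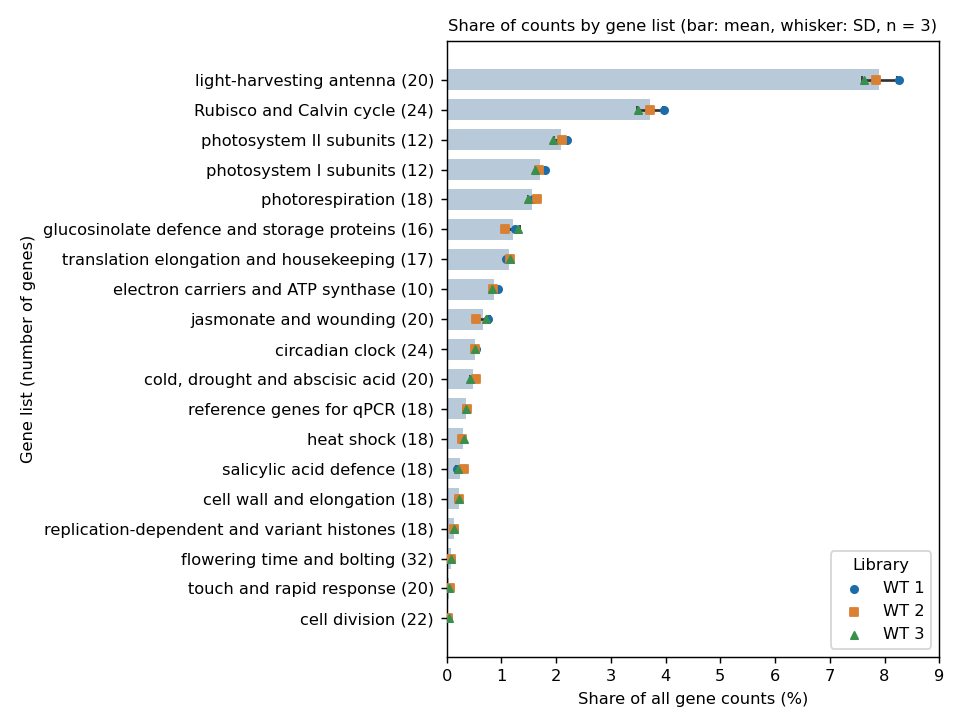
Share of all gene counts held by each of 19 gene lists in wild-type tissue, in percent. Bars are means over the 3 libraries, whiskers the SD and points the libraries. The antenna held 7.91% and the Rubisco and Calvin cycle list 3.72%, while the flowering time list with 32 genes held 0.0779%.

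Genes of defence against herbivores were also abundant, in part. The 16 genes of glucosinolate defence and storage proteins held 1.202 ± 0.129% of the counts. Of these genes 12, or 75%, were expressed, beside 62.5% of all coding genes. The 18 genes of photorespiration held 1.57 ± 0.0830% and the 17 of translation and housekeeping 1.13 ± 0.0370%. TGG2, the other main myrosinase, had 3218, 2850 and 3474 CPM, and ESM1, a protein that favours isothiocyanate release, had 2587, 2646 and 2159 CPM. About 25.7% of the words of ESM1 recur elsewhere in the genome. BGLU18, a beta-glucosidase of leaf ER bodies, had 1438, 972 and 1504 CPM. Indole and aliphatic glucosinolates are made through CYP83B1 and CYP83A1, which averaged 396 ± 15.8 and 479 ± 4.64 CPM and had the highest CPM of 218 cytochrome P450 genes.

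A few cold-regulated genes were abundant in all 3 libraries. Of 20 genes on the list for cold, drought and abscisic acid, 19 were expressed, beside 62.5% of all coding genes. The median among these 19 was 24.8 CPM, against 19.0 CPM for all expressed genes. LTI78, also known as RD29A, had 1043, 1288 and 979 CPM, COR15A had 921, 966 and 681 CPM, and KIN2 had 719, 700 and 570 CPM. Their upstream factor DREB1A had 22.5, 21.3 and 21.1 CPM. LTI65 varied most on this list, with 4.285, 6.71 and 2.59 CPM and a CV of 45.8%.

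Genes of the circadian clock were nearly all expressed, 23 of 24, beside 62.5% of all coding genes. The most abundant were GRP7 with 3108, 3046 and 2990 CPM, its relative CCR1 (AT4G39260) with 550, 544 and 555 CPM, and the nuclear regulator TIC with 298, 321 and 313 CPM. Among core components, the afternoon and evening genes GI, PRR5 and TOC1 stood at 46.9, 70.9 and 48.8 CPM per kb. The dawn genes CCA1, LHY and RVE8 stood at 11.3, 1.92 and 1.86 CPM per kb. Over the libraries the CV was 6.93% for TOC1 and 7.20% for PRR5, against 17.1% for CCA1, 11.4% for LHY and 20.8% for RVE8.

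The labelled tissue was checked against 12 marker lists. Over all coding genes, 62.5% were expressed. Markers of leaf and shoot cell types were expressed to unequal extents: all 4 mesophyll, all 7 epidermis and cuticle, all 6 phloem and all 5 guard cell markers were, but 2 of 6 of the stomatal lineage and 2 of 5 of trichomes. In whole tissue, fewer cells of a type and less RNA per cell cannot be told apart. Guard cells were represented by the potassium channel KAT1 with 23.2, 26.8 and 26.3 CPM and by FMA, the factor that ends stomatal development, with 14.4, 14.2 and 15.97 CPM. Phloem was represented by SUC2, the sucrose carrier of companion cells, with 205, 179 and 167 CPM. Secondary wall genes were low, with 9 of 12 markers expressed and the cellulose synthases CESA4, IRX3 and IRX1 at means of 14.2, 11.4 and 10.3 CPM. NAC012, also known as SND1, which switches on fibre walls in stems, had 0 counts in all 3 libraries, and its partner NST1 had 0.0575, 0.374 and 0.201 CPM.

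Markers of the shoot apex, flowers and seeds were absent or near the limit of detection, although the stage is labelled as bolting. WUS and CLV3, which define the stem cell region of the shoot meristem, had 0 counts in all 3 libraries. STM, which keeps meristem cells undifferentiated, had 1, 1 and 30 counts in WT 1, WT 2 and WT 3, and KNAT1 had 0, 0 and 30 counts. CLV1, at 54.8, 54.1 and 52.0 CPM, was the only expressed gene among 8 meristem markers. The other 7 summed to 8, 9 and 89 counts. Most of these counts lay in WT 3.

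Of 12 floral organ markers, only AP2 was expressed, with 23.4, 25.8 and 25.3 CPM. AP2 also acts outside flowers. AP1, the gene that sets floral meristem identity, and STK had 0 counts in all 3 libraries, and the other 9 had at most 0.833 CPM in any library. The 11 floral markers without AP2 summed to 53, 43 and 61 counts. Of 10 pollen and anther markers, TPD1 alone was expressed, with 6.50, 5.785 and 5.402 CPM, and AMS, MS1, MYB97, MYB101 and PPME1 had 0 counts. Among 14 seed markers, OLEO4 alone was expressed, with 1.12, 1.065 and 2.04 CPM.

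Root markers were likewise low. Of 18, only SCR with 25.5, 26.5 and 25.1 CPM and SHR with 10.09, 9.84 and 10.03 CPM were expressed, and both are also known from leaf vascular tissue. CASP2 and CASP5 of the root endodermis, the root hair factor RHD6, SHV2, PLT1 and PLT2 had 0 counts in all 3 libraries. PYK10, a beta-glucosidase of ER bodies in roots and seedlings, had 2.73, 0.950 and 21.5 CPM. In its level per library it went with other genes that were high in WT 3, described below.

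**Figure D3:**
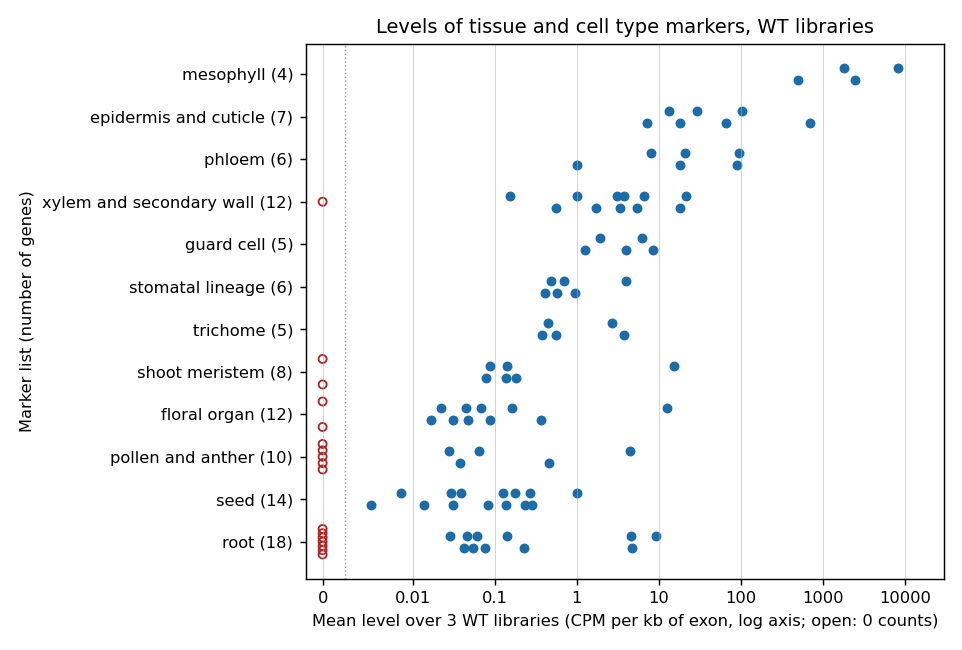
Mean level of each marker gene over the 3 wild-type libraries, in CPM per kb of exon on a log axis, by tissue or cell type. Open points at the left edge are genes with 0 counts. Mesophyll markers lie between 492 and 8247 CPM per kb, while most meristem, floral, pollen, seed and root markers lie below 1.

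Of 32 regulators of flowering 22 were expressed, a share near the 62.5% of all coding genes. The floral integrator SOC1, listed as AGL20, had 39.6, 39.7 and 35.4 CPM, and SVP, a repressor of flowering of the same MADS-box family, had 104, 102 and 93.3 CPM. GI had 209, 212 and 184 CPM, and the repressor RAP2.7 had 96.1, 100 and 98.7 CPM. The repressor FLC, whose level is low in Col-0, was listed at 0.431, 0.0576 and 0.201 CPM. AT5G01675 on the opposite strand overlaps 100% of FLC, so without strand their reads cannot be told apart. FT, the mobile signal made in phloem, had 0, 0.0576 and 0.0575 CPM, which is at most 2 counts per library. LFY, AP1 and the FT homologue TSF had 0 counts in all 3 libraries. SPL4, a factor that promotes the floral transition, had the highest CV of the list at 37.2%, with 8.28, 6.19 and 3.76 CPM.

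Over the whole genome, 17366 of the 32548 nuclear genes were expressed and 9093 silent. The remaining 6089 genes lay between: 712 reached 1 CPM in 1 or 2 libraries and 5377 had counts but stayed below 1 CPM in each. Expressed genes held 99.8% of the counts, with a median of 19.0 CPM. At least 10 CPM was reached by 11761 genes and at least 100 CPM by 1812.

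Most expressed genes coded for proteins. Of 27444 protein-coding genes, 17139 were expressed, which is 62.5%, and 5209 were silent, which is 19%. Of 3480 long noncoding RNA genes, 150 were expressed and 2597 silent. Of 325 miRNA precursor genes 11 were expressed, and of 625 tRNA genes none was, with 616 silent and the other 9 below 1 CPM on average. The library protocol selects polyadenylated RNA, which mature tRNAs are not. The part of this step in the counts above was not tested.

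Few noncoding transcripts were abundant. AT4G13495, annotated as an RNA of another kind, had 278, 291 and 260 CPM, and it contains the annotated precursors MIR850, MIR863 and MIR5026 on the same strand. GUT15, known as an unstable noncoding transcript, had 225, 207 and 193 CPM, and AT4G36648 had 100, 102 and 88.8 CPM. The 5 most abundant long noncoding RNA genes had 17.38 to 23.3 CPM as means. Between 81.3 and 100% of the annotated span of those 5, introns included, overlaps other annotated genes, mostly on the opposite strand. Without strand their reads cannot be told from those of the overlapping gene. The most abundant miRNA precursors were MIR5642a with 18.4, 13.0 and 16.2 CPM, MIR414 with 9.29, 8.75 and 7.96 CPM and MIR850 with 7.71, 6.82 and 7.73 CPM. Of the words of MIR5642a 64% recur elsewhere, and MIR850 lies wholly within AT4G13495. Of the next precursors, MIR163 had 2.24, 3.05 and 3.103 CPM and MIR162a had 2.21, 2.71 and 3.36 CPM.

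Protein-coding genes with more introns and longer exons were expressed more often. The median exon length was 1842 bases for expressed, 1262.5 for intermediate and 821 for silent coding genes. Genes without introns made up 13.4% of the expressed, 28.9% of the intermediate and 35.7% of the silent genes. Turned round, 40.8% of the 5637 coding genes without introns were expressed, against 77.2% of the 13767 with 3 or more introns. Long genes collect more counts at an equal number of transcripts. With a threshold of 1 CPM per kb of exon, 16762 nuclear genes were expressed.

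Classes of proteins that every cell needs were nearly all expressed. By annotated product, 34 of 36 proteasome subunits and 321 of 359 ribosomal proteins were expressed. So were 251 of the 282 genes classed as pentatricopeptide repeat proteins, a family that processes organelle RNA. The ribosomal proteins held 3.81% of the counts, and their median among expressed members was 75.8 CPM. RP1 (AT1G43170), the cytosolic protein L3, led them with 691, 702 and 745 CPM. The pentatricopeptide repeat class was low, with a median of 5.07 CPM among expressed members. This class was matched by product text and is not pure. The product of its most abundant member, EBS1 with 140, 159 and 158 CPM, names no such repeat. Of 51 histones 43 were expressed.

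Classes for defence and signalling lay near the 62.5% of all coding genes. Of 225 receptor-like kinases 158 were expressed, of 141 resistance proteins of the NBS-LRR type 97, of 72 WRKY factors 47 and of 128 glycosyltransferases of the UGT type 83. SOBIR1, a co-receptor in immunity, was the most abundant of the kinases with 260, 344 and 323 CPM. WRKY70, a factor of salicylic acid signalling, led the WRKY class with 156, 172 and 176 CPM.

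Fewer were expressed in other classes: 101 of 218 cytochrome P450 genes, 48 of 126 MYB factors, 35 of 78 SAUR proteins, 43 of 101 GDSL lipases and 30 of 85 late embryogenesis abundant proteins. Class III peroxidases were expressed in 18 of 67 cases, and of the 0.432% of counts that the class held, PRXR1 alone contributed 3931 CPM. Pectin-related proteins were expressed in 68 of 234 cases, led by the pectin methylesterase PME3 with 517, 571 and 529 CPM.

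Large families known from reproduction were almost wholly silent. Of 74 proteins related to ECA1, a family known from egg cells and embryo sacs, none was expressed and 73 were silent. The remaining gene, AT5G51105, had 1 count in WT 2 alone. Of 67 self-incompatibility-like proteins, 60 were silent and AT1G60995 was expressed, with 20.3, 22.3 and 22.96 CPM. Of 220 defensin-like and other small cysteine-rich peptides 185 were silent and 11 expressed. The expressed members were led by PDF1.2 with 82.2, 178 and 27.8 CPM and by LCR69 with 81.8, 71.9 and 73.6 CPM. F-box proteins, the substrate receptors of ubiquitin ligases, formed the largest class with 652 genes, of which 371 were silent and 138 expressed. Among the expressed ones were the auxin receptors TIR1 with 91.5, 97.6 and 94.0 CPM and AFB5 with 90.12, 98.7 and 85.3 CPM.

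MADS-box factors were expressed in 19 of 121 cases, and 53 were silent. The most abundant were SVP, SOC1 and MAF1, a relative of FLC with 33.8, 36.9 and 31.9 CPM. These 3 act on flowering time, whereas the floral organ members AP1 and STK had no count.

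**Figure D4:**
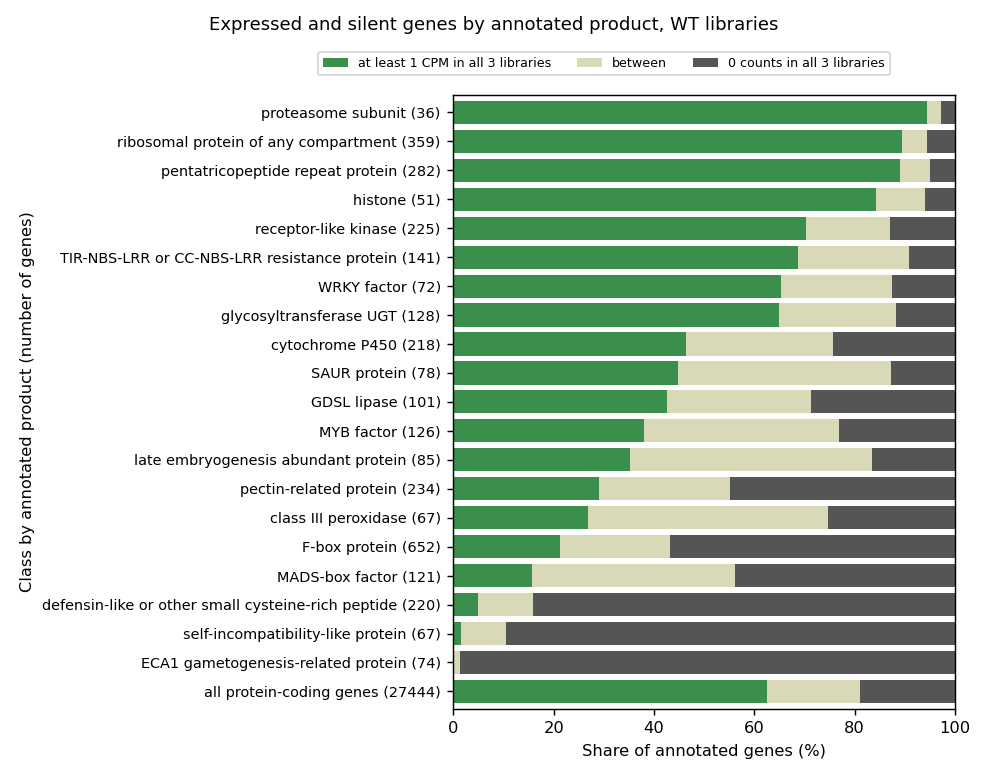
Share of annotated genes in 20 classes of protein product that were expressed (at least 1 CPM in all 3 wild-type libraries), silent (0 counts in all 3) or between, in percent of the class, with all 27444 protein-coding genes at the bottom. Expressed shares run from 34 of 36 proteasome subunits down to 0 of 74 ECA1-related proteins.

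Expressed genes were spread over the chromosomes except near the centromeres. In windows of 1 Mb of TAIR10.1, the median share of expressed coding genes over the 106 windows with at least 100 such genes was 63.7%. The highest share was 77.0% of 305 genes at chr3:2000001-3000000. The lowest was 4.13% of 121 genes at chr2:3000001-4000000, where 73 genes were silent. That window is known to hold a copy of much of the mitochondrial genome, and the part of reads that match both places was not tested. The 15 windows with fewer than 100 coding genes had a median of 30.8%. The window with the most counts, chr1:10000001-11000000, held 3.49% of all counts and contains CAB1, CAB2 and CAB3.

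Promoter sequences were read from the TAIR10.1 genome, as 250 bases before to 50 after the annotated start of each gene, for 27443 coding genes. Motifs were searched on both strands: CACGTG, the G-box bound by bZIP and bHLH factors of light signalling; GATAAG, the I-box known from light-regulated genes; AAACCCTA, the telo-box; and GGCCCA, the site II element known from ribosomal protein genes. Of the 78 photosynthesis promoters, 28.2% held CACGTG and 39.7% held GATAAG, against 7.68% and 14.7% of all coding promoters. None of the 78 held AAACCCTA. Of the 359 ribosomal protein promoters, 36.5% held AAACCCTA and 52.9% held GGCCCA, against 6.22% and 15.5% of all. Only 5.01% of them held CACGTG. A match is a description of the letters and not a site shown to be bound.

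The shares with CACGTG and with GATAAG fell with the level of the genes, and those of the other motifs had other orders. Of the 100 most abundant coding genes 22% held CACGTG, of the next 900 11.9%, of the other expressed genes 8.86% and of silent genes 3.51%. GATAAG was held by 27, 20.4, 14.7 and 13.9% in the same order. AAACCCTA was held by 6% of the first 100 and was most frequent in silent genes, at 8.95%. GGCCCA was held by 17% of the first 100, 26% of the next 900, 20% of the other expressed genes and 6.03% of silent genes. TATAAA anywhere in the window was held by 42% of the first 100, against 52.2% of all. In the window from 50 to 20 bases before the start on the sense strand, it was held by 6% of the first 100, against 8.06% of all.

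The following promoters are shown because they belong to the most abundant photosynthesis and ribosomal protein genes with both motifs of their class within the 250 bases before the annotated start. LHCB4.1 and LHCA4 hold CACGTG and GATAAG in the window of 300 bases but not both in those 250. The sequences are those 250 bases, 5′ to 3′ on the strand of the gene, with the motif letters in capitals. LHCB6 had 3908, 3703 and 3468 CPM and PSBQ-2, a protein of the oxygen-evolving complex, had 2187, 2103 and 1852 CPM. EMB3113, a ribosomal protein of the S5 family, averaged 341 ± 28.7 CPM, and AT4G27090, the ribosomal protein L14, averaged 304 ± 8.34 CPM. TAGGGTTT and TGGGCC are AAACCCTA and GGCCCA read on the other strand.
LHCB6, chr1:5447881-5448130, minus strand: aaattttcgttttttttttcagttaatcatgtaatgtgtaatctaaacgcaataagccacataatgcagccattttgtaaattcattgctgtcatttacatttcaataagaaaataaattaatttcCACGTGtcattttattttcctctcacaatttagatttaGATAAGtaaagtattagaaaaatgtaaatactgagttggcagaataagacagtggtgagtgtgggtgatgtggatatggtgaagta
PSBQ-2, chr4:2673244-2673493, minus strand: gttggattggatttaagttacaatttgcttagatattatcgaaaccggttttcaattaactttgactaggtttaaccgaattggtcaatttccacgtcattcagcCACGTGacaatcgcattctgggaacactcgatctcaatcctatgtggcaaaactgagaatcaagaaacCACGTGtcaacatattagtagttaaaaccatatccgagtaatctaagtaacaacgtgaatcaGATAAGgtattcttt
EMB3113, chr2:14302497-14302746, minus strand: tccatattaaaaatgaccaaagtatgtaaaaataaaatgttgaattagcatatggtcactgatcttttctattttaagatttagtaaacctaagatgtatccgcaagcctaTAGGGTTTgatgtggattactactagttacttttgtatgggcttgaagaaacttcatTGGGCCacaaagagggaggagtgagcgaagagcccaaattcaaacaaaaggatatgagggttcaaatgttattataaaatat
AT4G27090, chr4:13595253-13595502, minus strand: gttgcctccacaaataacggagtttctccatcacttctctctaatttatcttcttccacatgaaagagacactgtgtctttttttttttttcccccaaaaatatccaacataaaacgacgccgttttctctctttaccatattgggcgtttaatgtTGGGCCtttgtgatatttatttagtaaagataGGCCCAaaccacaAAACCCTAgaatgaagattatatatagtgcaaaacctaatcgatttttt

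In LHCB6 the CACGTG starts 124 and the GATAAG 86 bases before the annotated start. PSBQ-2 holds CACGTG at 145 and again at 77 bases, and GATAAG at 15 bases. In windows of 250 bases, 6.49% of all promoters held CACGTG, 12.3% GATAAG, 4.49% AAACCCTA and 13.7% GGCCCA. The motifs were not shared by all abundant genes: 11 of the 20 genes with the highest CPM, CAB1, RBCS1A and LHB1B2 among them, held none of the 4 in their 300 bases. No match says only that these letters are not in this window, and the annotated start is the outermost of a gene's transcripts.

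The libraries were close to each other. Over the 17366 expressed genes, Pearson's r of log2 CPM was 0.994 for WT 1 and WT 2, 0.993 for WT 1 and WT 3, and 0.991 for WT 2 and WT 3. These describe genes within a tissue, and genes are not independent. Differences of 2-fold or more between libraries were found for 74, 93 and 155 genes in the same order of pairs. Each pair differed by more than counting noise, with a chi-square per degree of freedom of 14.4, 13.5 and 17.0.

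The median CV over expressed genes was 6.88%, against 3.89% from counting alone. It was 13.97% for genes of 1 to 5 CPM, where counting gives 10.03%, and 5.07% for genes of 100 to 500 CPM, where counting gives 1.34%. Above 500 CPM it was 6.26%. The biological coefficient of variation that edgeR estimated over 18801 genes, the spread left after counting noise, was 9.59%. It is a single value fitted to all these genes together, so it need not lie below the median CV of single genes. The quietest genes named by the rule were HDS of plastid isoprenoid synthesis with 536.0, 536.3 and 536.8 CPM, the acyl carrier protein ACP3 with 86.4, 86.5 and 86.3 CPM and BGAL2, a beta-galactosidase, with 139.4, 139.3 and 139.0 CPM. These genes were chosen for their low CV, so it is a description.

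Genes in common use as references for quantitative PCR were quieter than the median. Over 17 of them with 5 CPM or more, the median CV was 3.78%. AT4G33380 had 53.4, 52.6 and 52.3 CPM, AT5G55840 had 8.60, 8.43 and 8.59 CPM and ACT2 had 484, 508 and 519 CPM. UBC9 had 90.06, 101.3 and 84.3 CPM with a CV of 9.41%. AT1G58050, on the same list, had 0 counts in all 3 libraries, although none of its 100-base words recurs and no annotated gene overlaps it.

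Photosynthesis genes shared an order between libraries. Of the 78, 66 were highest in WT 1 and 55 lowest in WT 3, beside 22.1% and 23.3% of all genes of 5 CPM or more. Their median log2 ratio to the mean of the libraries was 0.08 in WT 1, -0.01 in WT 2 and -0.07 in WT 3, against -0.03, -0.0013 and 0.02 for all nuclear genes of 5 CPM or more.

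A CV of 50% or more was found for 41 of 14342 genes averaging 5 CPM or more, which is 0.286%. WT 3 was the highest library for 35 of them, WT 2 for 6 and WT 1 for none, while over all 14342 genes WT 3 was highest for 45.1%. WT 2 was the lowest library for 29 of the 41. Without WT 3 the count was 25 genes, and without WT 1 it was 68. The genes described next were chosen for this spread, so their values are descriptions.

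Of the 41 genes, 2 were on the list of 7 epidermis and cuticle markers, and the others below were grouped as genes of the cuticle or epidermis after their values were seen. PEL3, an acyltransferase of the cuticle, had 52.8 CPM in WT 3, against 8.80 in WT 1 and 5.785 in WT 2. PDF1, a protein of the outermost shoot layer, had 76.8 CPM in WT 3, against 24.8 in WT 1 and 18.8 in WT 2. CYP86A4, which makes cutin monomers, had 13.6, 3.48 and 1.81 CPM in WT 3, WT 1 and WT 2, and KCS5, which elongates wax precursors, had 32.2, 11.6 and 6.94 CPM. The lipid transfer protein LTP6 had 13.4 CPM in WT 3, against 2.42 in WT 1 and 1.64 in WT 2. All 7 markers of epidermis and cuticle were highest in WT 3 and lowest in WT 2, beside 45.1% and 32.7% of all genes of 5 CPM or more. Their summed share of the counts was 0.112, 0.1003 and 0.141% in WT 1, WT 2 and WT 3.

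Other genes had the same profile. GL2, which directs hair fate in the epidermis, had 21.6 CPM in WT 3, against 7.56 in WT 1 and 6.73 in WT 2, and MYB0, also known as GL1 and required for leaf hairs, had 1.15 CPM, against 0.0575 and 0.0576. The 5 trichome markers summed to 0.00122, 0.00113 and 0.00312% of the counts in WT 1, WT 2 and WT 3. GL2 made up most of that sum and was the only 1 of the 5 averaging 5 CPM or more. PYK10 had 21.5 CPM in WT 3, NSP4, a nitrile specifier protein, had 15.8 CPM, against 1.93 and 0.978, and CYP81F4, which modifies indole glucosinolates, had 18.6 CPM, against 2.59 and 1.12. About 18.21% of the words of NSP4 recur elsewhere. AT4G37409 on the opposite strand overlaps 99.6% of CYP81F4, so without strand the reads of these genes cannot be told apart. Of 13 cell division genes with 5 CPM or more, 11 were highest in WT 3, beside 45.1% of all 14342 genes of that level. The summed counts of the 7 low meristem markers above were also highest in WT 3. The widest of all was AT1G62500, a lipid transfer-like protein, with 19.8 CPM in WT 3, against 0.201 in WT 1 and 0.144 in WT 2. The part of tissue makeup in these differences was not tested.

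Another group went with WT 2. The defensin PDF1.2, a marker of jasmonate and ethylene defence, had 178 CPM in WT 2, against 82.2 in WT 1 and 27.8 in WT 3, and its relatives PDF1.2b and PDF1.2c had 17.38 and 80.6 CPM, against 6.70 and 30.0 in WT 1 and 1.81 and 8.13 in WT 3. Some genes of salicylic acid defence followed. PR1 had 555 CPM in WT 2, against 233 in WT 1 and 279 in WT 3. PR5 had 774, against 395 and 410, and the glucanase BGL2 had 1155, against 617 and 766 CPM. All 18 genes of the salicylic acid list were expressed, beside 62.5% of all coding genes. Of the 17 with 5 CPM or more, 10 were highest in WT 2, 6 in WT 3 and 1 in WT 1. WT 1 was lowest for 15 of them. Over all 14342 genes of that level, WT 2 was highest for 32.8% and WT 1 lowest for 44.0%. The median log2 ratio of the 17 genes to the mean of the libraries was -0.217 in WT 1, 0.107 in WT 2 and 0.022 in WT 3. The list held 0.184, 0.316 and 0.212% of the counts in WT 1, WT 2 and WT 3. PR1, PR5 and BGL2 made up most of that sum in each library.

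Jasmonate synthesis and wound proteins were low in the same library. Of 17 genes on the jasmonate list with 5 CPM or more, 14 were lowest in WT 2, beside 32.7% of all genes of that level. VSP1, a storage protein induced by jasmonate, had 121 CPM in WT 2, against 365 in WT 1 and 476 in WT 3, and VSP2 had 204, against 570 and 701 CPM. AOS, which commits lipid peroxides to jasmonate, had 499 CPM, against 710 and 678, and the factor MYC2 had 124, against 163 and 159 CPM. The defensins PDF1.2 and PDF1.2b went the other way. AT1G32630 on the opposite strand overlaps 98.5% of MYC2, so without strand their reads cannot be told apart. The list held 0.754, 0.526 and 0.726% of the counts in WT 1, WT 2 and WT 3.

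**Figure D5:**
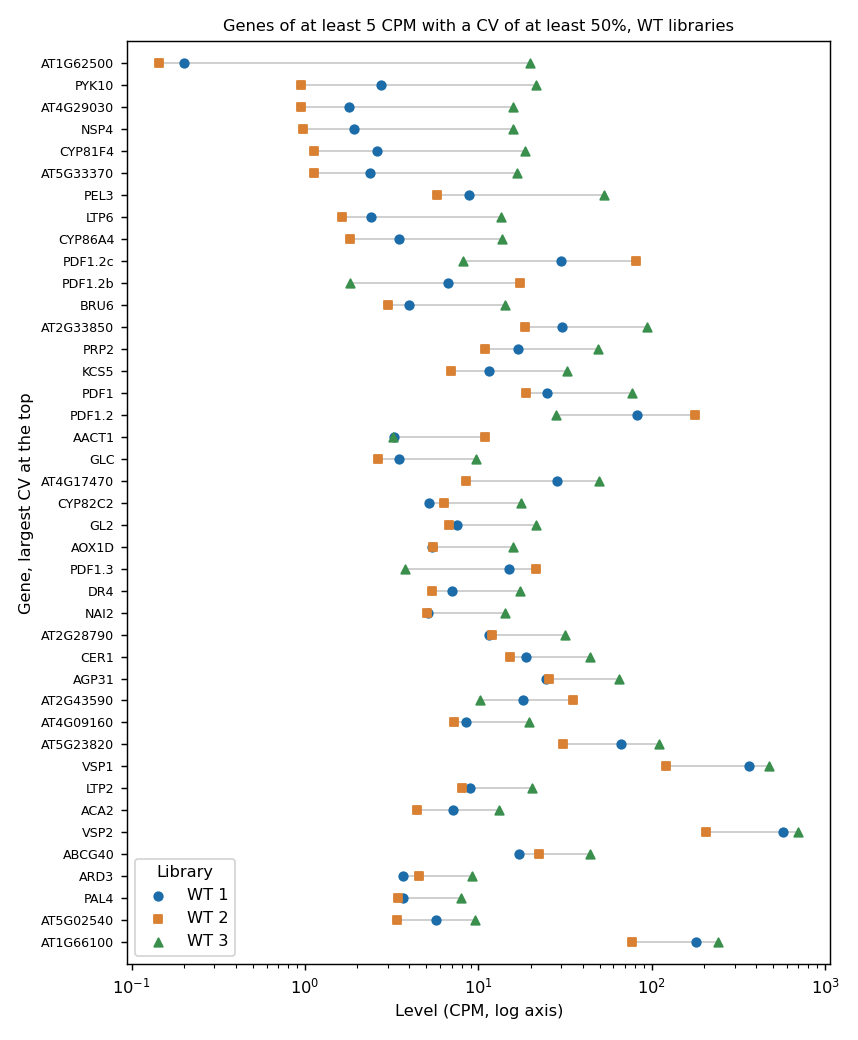
The 41 genes that averaged 5 CPM or more and had a CV of at least 50% over the 3 wild-type libraries, each with its CPM in WT 1, WT 2 and WT 3 on a log axis. WT 3 is the highest point for 35 of them, and the defensins PDF1.2, PDF1.2b, PDF1.2c and PDF1.3 are among the 6 with WT 2 highest.

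Genes of rapid response to touch and wounding were mostly low. All 20 were expressed, beside 62.5% of all coding genes. They had a median of 11.04 CPM, against 19.0 CPM for all expressed genes, and at most 179.6 CPM for the calmodulin-like TCH3 in any library. Their median CV was 11.8%, against 6.11% for all genes of 5 CPM or more. Heat shock genes were led by the constitutive chaperone HSC70-1 with 2256, 2246 and 2601 CPM, while the inducible HSP101 had 8.43, 10.04 and 10.6 CPM and the plastid protein HSP21 had 0 counts. Among 18 genes of cell wall growth, 17 were expressed, again beside 62.5% of all coding genes. They were led by the cellulose synthases CEV1 and CESA1 of primary walls at 134 and 120 CPM per kb. EXPA2, an expansin known from seeds, had 0 counts. Cell division was low: 21 of 22 genes were expressed, beside the same 62.5%, but their share was 0.0314% of the counts. The mitotic cyclin CYCB1;1 had 2.04, 1.96 and 2.67 CPM.

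PPD3 (AT1G76450), the gene that the transgene of the other plants targets, had 112, 98.6 and 92.0 CPM in WT 1, WT 2 and WT 3. It is annotated as a PsbP family protein of photosystem II. Its order over the libraries was that of most photosynthesis genes, and its level per kb, 106 ± 10.5, lay below every photosystem II subunit listed other than PSBP-2.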

How the data were processed

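RNA of wild-type tissue was sequenced from TruSeq RNA version 2 libraries as paired reads of 100 bases on a DNBseq instrument, per the labels' protocols. The submitters' processing notes name STAR 2.7.0a and Trim Galore 0.4.1, and as genome build TAIR10. The authors deposited whole-number counts per gene and library with no normalization. The program, annotation and strand setting of the counting were not stated, nor was whether a count is a read or a pair. The 5 lines that name no gene were dropped. Of these, reads outside genes made up 0.642 to 0.667% and ambiguous reads 0.240 to 0.258% of the gene counts and both kinds together. The line for reads with several positions is listed at 0.

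Counts were divided by the total over all genes of the library to give CPM, with mean and SD over WT 1 to WT 3. Exon lengths, introns, products, positions and promoters came from RefSeq's annotation of TAIR10.1, in which 32548 identifiers matched nuclear genes by locus code. The deposited tables hold no coordinates. The spread was estimated in edgeR 4.0.16 (R 4.3.3) with TMM factors of 0.981 to 1.02, filterByExpr and no covariate, and checked on simulated data. Tables were handled in Python 3.11.15 with pandas 2.3.3. Exon words of 100 bases were counted over the genome for 525 genes, of which 491 had none elsewhere and 16 had 10% or more.

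The members, the 31 lists with 464 entries, the 20 product classes and the tests were chosen with earlier results of these data known. Named by rule were the 20 genes with the highest CPM, the 10 with the highest CPM per kb, in each list the 3 highest members, the most variable one of at least 5 CPM and those with 0 counts, the 15 genes with the highest and 10 with the lowest CV among those with a symbol, the 5 most abundant genes of each noncoding type, and PPD3. Every other gene named was chosen after its values were seen. So were the pattern for ribosomal products, tightened because it had taken in an elongation factor, and the printed promoters, picked because they hold the motifs, after those of more abundant genes, CAB1 and RBCS1A among them, had been looked at and held none of the 4. With a single group there was no comparison and no test. Alternatives were other scaling factors, other thresholds, levels per kb, the top gene left out and each library left out. Not every gene that the rule names is described.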

Additional observations from a re-analysis of the deposited data

Results flagged for a closer look

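Lines of the deposited tables that the description above does not use also hold counts. Reads outside annotated genes numbered 233993 in WT 1, 231326 in WT 2 and 225363 in WT 3. Reads that matched more than 1 gene numbered 90527, 89730 and 84223. The 1144 RNA identifiers that carry no locus code together held 1016, 1279 and 619 counts, and 19 of them had any count. The 5 highest of these held 96.7% of their counts.

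Since each group has 3 samples, no library was screened as an outlier of a group.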

How the results depend on the processing

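No paired analysis was possible because a single group was described and no test was made. The number of expressed genes ran from 16223 to 18872 and of silent genes from 9093 to 11449 over all thresholds, scaling factors and left-out libraries tried. The number of genes with a CV of 50% or more depended on the libraries and the floor. Its alternatives, chosen after seeing the data, gave 25 genes without WT 3 and 68 without WT 1, 138 at a floor of 1 CPM, 15 at 20 CPM and 36 under each of 3 scaling factors, against 41. The median CV was 6.73% with TMM, 6.73% with upper-quartile and 6.74% with DESeq2 factors, and 5.39 to 5.99% with 2 libraries, against 6.88%. The biological coefficient of variation was 10.04% with no filter, 9.22% at 1 CPM, 9.90% without factors, 6.61% by DESeq2 1.42.0 and 8.23 to 11.1% with a library left out, against 9.59%. The cause of these differences was not tested. With CAB1 left out of set and total, photosynthesis held 14.6% and the rest of the 10 most abundant genes 5.61% of counts. With CAB1 these shares were 16.3% and 7.50%. Per kb, with CAB1 kept, they were 21.3% and 9.29%, and that of ribosomal proteins was 6.10%, against 3.81%. Under the 3 scaling factors, levels of the 525 genes checked moved by at most 1 SD. Factors near 1 largely cancel in a mean over 3 libraries, so this check could hardly have come out otherwise. Leaving out 1 of 3 libraries cannot move a mean by 1 SD, but 21 levels moved by over 1.5 times without WT 3 and 4 without WT 2. Below about 0.0863 CPM per library, presence and absence cannot be separated at this depth.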
